A study of Mus musculus with 24 samples.

Results

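Opioid peptides and their receptors form a small signalling family that is spread through the hypothalamus. The 7 genes described here are the precursors Penk, Pdyn and Pnoc and the receptors Oprm1, Oprd1, Oprk1 and Oprl1, chosen by name from the 45706 genes of the deposited count table. All 7 were found there and all 7 passed the filter on low counts. The libraries were made from whole hypothalamus of male mice with diet-induced obesity (DIO; a mean body weight of 53 g, kept in pairs). The 24 RNA-seq libraries fall into 3 groups of 8: isotonic saline, PSD-95i (UCCB01-147 at 25 mg/kg) and PICK1i (mPD5 at 56 mg/kg). PSD-95 and PICK1 are scaffolding proteins of the postsynaptic side of glutamate synapses, and the 2 inhibitors were given at different doses. Every mouse was injected once a day for 5 days, and the hypothalamus was collected 2 h after the final injection. The treatment protocol gives 6 saline mice while 8 saline libraries are labelled, so the number of separate animals behind the saline group is not certain.

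The 24 libraries held 4762703 to 9228858 assigned read pairs. In 3 of them the makeup differed from the rest. Saline replicates 2 and 3 held 62880 and 39030 CPM (a count scaled by the normalised total of its library) summed over 11 anterior pituitary markers, against at most 54.9 CPM in any other library. They also had the lowest summed levels of oligodendrocyte and lateral hypothalamic markers. PICK1i replicate 6 held 483 CPM of cortical and hippocampal markers, against at most 172 CPM elsewhere, and the lowest level of ventromedial markers (93.5 CPM). Arcuate, paraventricular, lateral and ventromedial markers were present in every library. PICK1i replicates 1, 2, 5 and 6 had 13.5% to 16.6% of their counts on mitochondrially encoded genes, against 7.88% to 11.2% in the other 20 libraries. Differences are therefore given with all 24 libraries and again with the 21 that remain without saline replicates 2 and 3 and PICK1i replicate 6.

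Each precursor is cut by prohormone convertases at pairs of basic residues, and one precursor can release several copies of an active peptide. Enkephalins from Penk act mainly at the delta and mu receptors (Oprd1 and Oprm1), dynorphins from Pdyn at the kappa receptor (Oprk1) and nociceptin from Pnoc at its own receptor (Oprl1). All 4 receptors couple to inhibitory G proteins and lower the excitability or transmitter release of the neurons that carry them. In the hypothalamus the family is known for effects on feeding, hormone release and stress, and Pdyn is made by the arcuate neurons that also make kisspeptin and neurokinin B.

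The peptide-coding stretches show what a change in each precursor transcript would carry. Capitals mark the codons of the peptide and the lower-case bases on either side are the neighbouring codons, all read from the GENCODE M21 transcripts of build GRCm38 on the minus strand. Penk lies at chr4:4133531-4138819. Its transcript Penk-201 holds the enkephalin pentapeptide codons 7 times in exon 2 of 2, 6 with the Met-enkephalin sequence and 1 with the Leu-enkephalin sequence. A pair of basic codons precedes each of the 7 copies and follows 5 of them. No such pair follows copies 4 and 7, so a count of these codons is not a count of free pentapeptides. The first copy lies at chr4:4134328-4134354 and the last at chr4:4133842-4133868.
Penk copy 1: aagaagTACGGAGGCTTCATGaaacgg
Penk copy 2: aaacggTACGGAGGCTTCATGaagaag
Penk copy 3: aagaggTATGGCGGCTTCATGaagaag
Penk copy 4: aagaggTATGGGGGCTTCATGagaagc
Penk copy 5: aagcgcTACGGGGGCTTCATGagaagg
Penk copy 6, Leu-enkephalin: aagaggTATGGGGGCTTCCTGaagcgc
Penk copy 7: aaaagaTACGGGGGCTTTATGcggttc

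Pdyn lies at chr2:129686565-129699844. Its transcript Pdyn-201 holds the Leu-enkephalin codons 3 times in exon 4 of 4, at chr2:129688232-129688258, chr2:129688124-129688150 and chr2:129688067-129688093, each between pairs of basic codons. These are the first residues of neo-endorphin, dynorphin A and dynorphin B.
Pdyn copy 1: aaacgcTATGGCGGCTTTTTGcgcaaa
Pdyn copy 2: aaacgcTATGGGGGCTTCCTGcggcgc
Pdyn copy 3: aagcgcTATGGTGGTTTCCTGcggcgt
Pnoc lies at chr14:65400673-65425472, and Pnoc-201 holds 1 nociceptin in exon 3 of 4, at chr14:65404836-65404898.
Pnoc: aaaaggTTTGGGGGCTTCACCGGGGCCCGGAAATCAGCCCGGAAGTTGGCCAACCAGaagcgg

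The receptor genes lie at chr10:6758506-7038198 on the plus strand (Oprm1), chr4:132110726-132144486 on the minus strand (Oprd1), chr1:5588466-5606131 on the plus strand (Oprk1) and chr2:181715016-181720985 on the plus strand (Oprl1). On the opposite strand Oprm1 overlaps Ipcef1, which had a mean of 113 counts per library, and Gm10945, which had 0. Whether strand was used in counting is not given in the sources used here, so the few Oprm1 reads could include reads of Ipcef1. Penk overlaps A830012C17Rik, which had a mean of 0.5 counts.

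To compare levels between genes, counts were divided by transcript length and scaled to a common total per library (TPM). Penk had the highest per-length level of the 7, with a median of 205 TPM over the 24 libraries (122 to 271). Its lowest library was above the highest library of the next gene, Oprl1. Oprl1 (median 95.3 TPM, range 52.0 to 110) and Pdyn (74.2 TPM, 26.03 to 108) overlapped, and Oprl1 was the higher in 15 of 24 libraries. Pnoc followed at 25.5 TPM (11.5 to 33.0) and Oprk1 at 13.1 TPM (6.03 to 15.7). Pdyn exceeded Pnoc, and Pnoc exceeded Oprk1, within each of the 24 libraries, although their ranges overlapped until the 3 libraries were left out. The mu and delta receptors were the lowest and overlapped, Oprm1 at 2.39 TPM (0.318 to 5.17) and Oprd1 at 2.28 TPM (0.820 to 3.41), with Oprm1 the higher in 11 of 24 libraries. Oprl1, the nociceptin receptor, was thus the most abundant of the 4 receptor transcripts, above that of its own ligand precursor Pnoc.

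**Figure D1:**
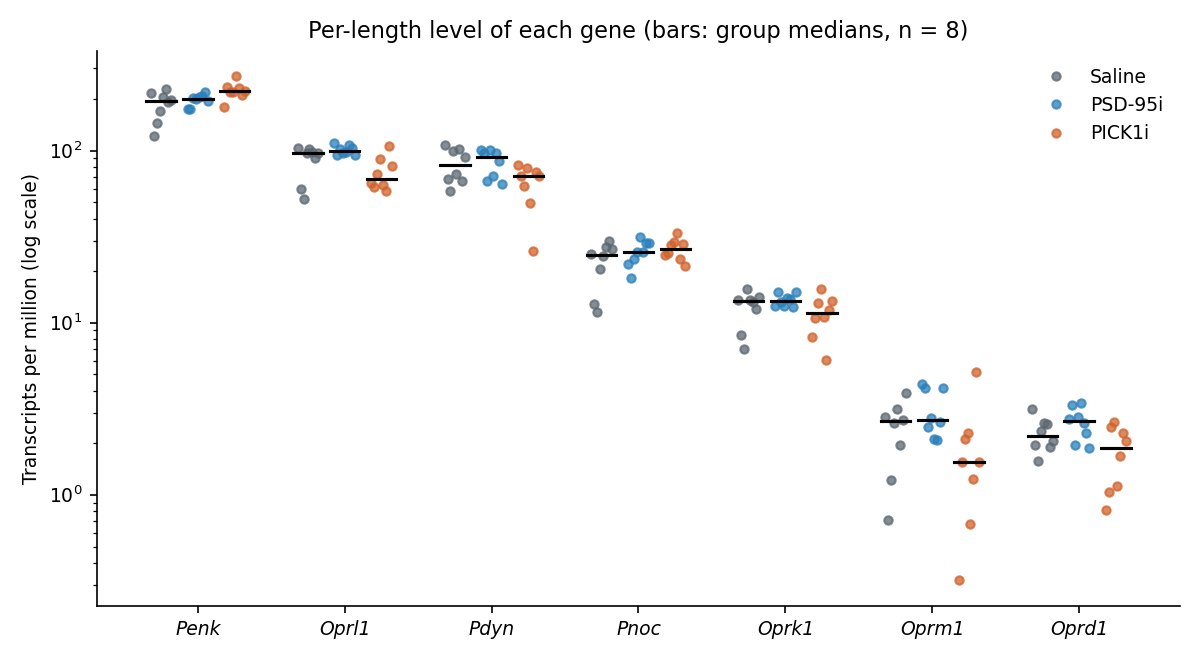
Per-length level (TPM, log axis) of the 7 genes in 24 libraries, 1 point per library, coloured by group, with bars at the group medians (n = 8). Penk stands highest (median 205 TPM) and Oprm1 and Oprd1 lowest (2.39 and 2.28 TPM).

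Comparing PICK1i with saline asks what inhibition of PICK1 did to these transcripts. Penk was the only one of the 7 that passed the test, and it rose. In edgeR's quasi-likelihood test over all 15667 genes tested, 1434 were called at an adjusted p under 0.05 (9.15% of genes, 4.88% in the higher direction), so 1 call among 7 genes is close to the background. DESeq2 called 1 of the 7, Penk, with 12.7% of all genes, and limma-voom with sample weights called 0, with 0.0191% of all genes. The median log2 fold change of the 7 was -0.05, against -0.01 over all genes tested. In bulk tissue, fewer cells of a type and less RNA per cell cannot be told apart.

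Penk, the enkephalin precursor, had 76.9 CPM in its lowest saline library, a median of 111 CPM and 127.5 CPM in its highest. In PICK1i the lowest, median and highest values were 114, 134 and 174.5 CPM. All 8 PICK1i libraries lay above the saline median and 6 lay above the highest saline library, while replicates 4 and 7 lay within the saline range. The means were 140 ± 20.1 and 107 ± 17.4 CPM (SD, n = 8 each), a log2 fold change of 0.39 ± 0.09 (SE; 95% interval 0.20 to 0.58; adjusted p = 0.0198), or 1.31-fold.

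The libraries at both ends of the Penk range in CPM differed from the rest in makeup or in mitochondrial share. The 2 lowest saline values belonged to replicates 2 (76.9 CPM) and 3 (89.7 CPM). The 4 highest PICK1i values, 136 to 174.5 CPM, belonged to replicates 1, 2, 5 and 6, the libraries with the high mitochondrial share, and the other 4 had 114 to 132 CPM. The same 4 libraries had a length tilt of -0.172 to -0.0957, against -0.0240 to 0.0886 in the other 20. The tilt is the slope, over genes, of a library's log2 deviation from the mean on log2 transcript length, so that a negative value means relatively fewer counts on long transcripts. In TPM, PICK1i replicate 1 was instead the lowest of its group for Penk, at 179 TPM. Replicates 2, 5 and 6 were at 235, 271 and 232 TPM, and the highest saline library was at 228 TPM. The Penk means in TPM were 224 ± 25.8 for PICK1i and 184 ± 36.1 for saline (SD, n = 8 each). With the tilt as a covariate Penk stood at 0.26 (adjusted p = 0.189). With 21 libraries the log2 fold change was 0.26 ± 0.08 (95% interval 0.08 to 0.43) and the call was lost (adjusted p = 0.122), with 5 of 7 PICK1i libraries above the highest saline one. At 21 libraries 3 of 15796 genes were called (0.019%) and 0 of the 7. At an unadjusted p under 0.05 were 2 of the 7 and 3302 of all genes. Without PICK1i replicates 1, 2, 5 and 6 the Penk value was 0.22 (adjusted p = 0.395). With those 4 and saline replicates 2 and 3 left out it was 0.11 (adjusted p = 0.691). The call was also lost with limma-voom (0.26, adjusted p = 0.111) and when only the PICK1i and saline libraries were fitted (0.38, adjusted p = 0.0930).

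Striatal neurons also make much Penk. Of 10 striatal markers 0 were called higher and 1, Rgs9, lower (-0.26, adjusted p = 0.0498, and -0.12 with adjusted p = 0.270 over 21 libraries). The log2 fold change was above 0 for 3 of the 10, with a median of -0.15. Their summed level was 234 to 322 CPM in saline and 228 to 261 CPM in PICK1i. Rgs9, Rasd2 and Pde10a had the highest medians of the 10, at 52.5, 63.8 and 50.9 CPM in saline. In PICK1i replicates 1, 2, 5 and 6, the libraries with the most Penk in CPM, the sum was 227.5 to 229.5 CPM. That was below the sum in the other 20 libraries. Single markers went both ways by group median. PICK1i was above saline for Ppp1r1b (20.1 against 16.4 CPM), Syndig1l (21.6 against 18.1 CPM) and Adora2a (2.13 against 1.97 CPM). It was below saline for Rgs9 (47.2 against 52.5 CPM), Pde10a (44.8 against 50.9 CPM) and Drd2 (8.315 against 13.55 CPM). Beyond these values, the part of striatal tissue, of the mitochondrial share and of the makeup of the 3 libraries in the Penk result was not tested.

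**Figure D2:**
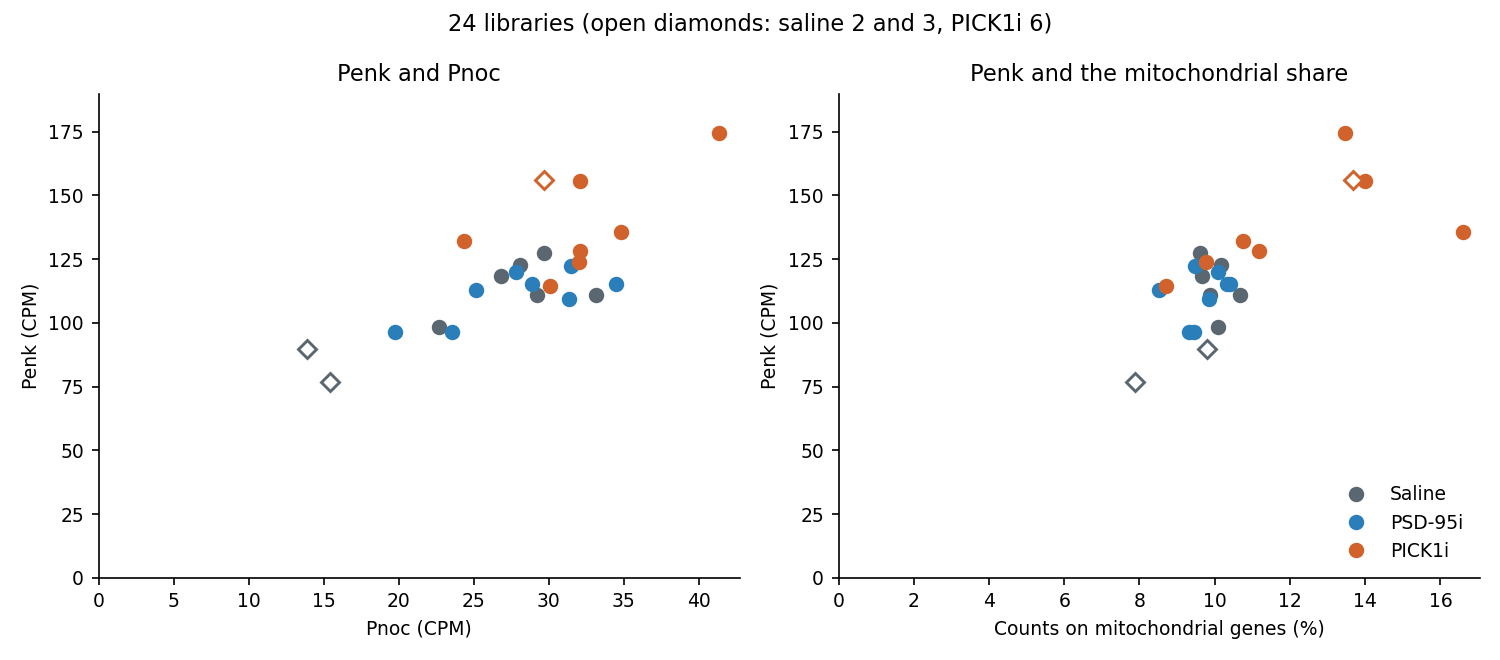
Penk (CPM) in 24 libraries against Pnoc (CPM, left) and against the share of counts on mitochondrially encoded genes (%, right), 1 point per library. The 4 PICK1i libraries at 13.5% to 16.6% mitochondrial counts are the 4 with the most Penk in CPM. Open diamonds mark saline replicates 2 and 3, the 2 lowest of their group, and PICK1i replicate 6.

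Pnoc, the nociceptin precursor, moved with Penk from library to library. Its lowest, median and highest values were 13.9, 27.5 and 33.2 CPM in saline and 24.4, 32.0 and 41.4 CPM in PICK1i. Saline replicates 2 (15.4 CPM) and 3 (13.9 CPM) were again the lowest, PICK1i replicate 5 was the highest, and the groups overlapped. The log2 fold change was 0.36 ± 0.14 (95% interval 0.07 to 0.66) with adjusted p = 0.100, and 0.18 (adjusted p = 0.358) with 21 libraries.

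Pdyn, the dynorphin precursor, had lowest, median and highest values of 70.1, 89.3 and 114 CPM in saline and 29.5, 76.8 and 109.5 CPM in PICK1i. The lowest value belonged to PICK1i replicate 6, and the next lowest of that group was 62.8 CPM. The groups overlapped, with 3 of 8 PICK1i libraries below the lowest saline one. The log2 fold change was -0.30 ± 0.16 (95% interval -0.63 to 0.04, adjusted p = 0.227), and -0.26 (adjusted p = 0.251) with 21 libraries. Of 5 arcuate markers 1 was called in the same comparison, the neurokinin B gene Tac2, which rose by 0.48 (adjusted p = 0.0231) and stood at 0.32 (adjusted p = 0.138) with 21 libraries. Kiss1, the kisspeptin gene, was at -0.02 (adjusted p = 0.973), from low levels of 0.167 to 1.56 CPM in saline and 0.222 to 1.75 CPM in PICK1i. The log2 fold change was above 0 for 4 of the 5 arcuate markers, with a median of 0.40.

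Oprl1, the nociceptin receptor, had lowest, median and highest values of 66.3, 106.5 and 117 CPM in saline and 82.0, 93.8 and 111 CPM in PICK1i. Within saline, replicates 2 (70.4 CPM) and 3 (66.3 CPM) lay far below the other 6, which were at 105 to 117 CPM. The log2 fold change was -0.05 (95% interval -0.24 to 0.14, adjusted p = 0.744) with all libraries. With 21 libraries it was -0.17 ± 0.05 (95% interval -0.28 to -0.06, adjusted p = 0.121), and 6 of 7 PICK1i libraries were below the lowest saline one. Leaving out the 3 libraries thus moved Oprl1 away from 0 and Penk towards 0, and neither passed the threshold then.

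Oprd1, the delta receptor to which enkephalins bind, had lowest, median and highest values of 3.52, 4.60 and 6.55 CPM in saline and 2.17, 4.18 and 5.36 CPM in PICK1i. The 4 lowest PICK1i values, 2.17 to 3.99 CPM, were those of replicates 1, 2, 5 and 6. The log2 fold change was -0.29 ± 0.18 (95% interval -0.66 to 0.09, adjusted p = 0.309), and 0.03 (adjusted p = 0.962) without those 4 libraries. The reads behind these values numbered 11 to 55 per library, so that counting error alone is large.

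Oprm1, the mu receptor, rested on 2 to 42 reads per library. Its values ran from 0.695 to 3.08 CPM in saline (median 2.26 CPM) and from 0.394 to 4.50 CPM in PICK1i (median 1.53 CPM). PICK1i held both the lowest and the highest library of the study. The lowest, replicate 1, had 2 reads (exact Poisson 95% interval 0.242 to 7.23, counting error only), and the highest, replicate 7, had 42 (30.3 to 56.8). These intervals do not meet, but they are on raw counts of libraries of unlike size (5601717 and 9228858 counts). They were also drawn for the lowest and highest library, so they do not test the spread. The biological coefficient of variation of Oprm1, the spread between libraries beyond counting error, was 36.0%. The log2 fold change of -0.14 did not pass in edgeR, and its 95% interval held 0 (-0.80 to 0.51, adjusted p = 0.803).

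Oprk1, the dynorphin receptor, had lowest, median and highest values of 14.9, 24.5 and 29.2 CPM in saline and 13.1, 23.3 and 29.5 CPM in PICK1i. Saline replicates 2 and 3 and PICK1i replicate 6 were the lowest of their groups at 17.5, 14.9 and 13.1 CPM. The groups overlapped over almost their whole range, with a log2 fold change of -0.02 (95% interval -0.27 to 0.24, adjusted p = 0.945). With 21 libraries the interval narrowed to -0.25 to 0.08.

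**Figure D3:**
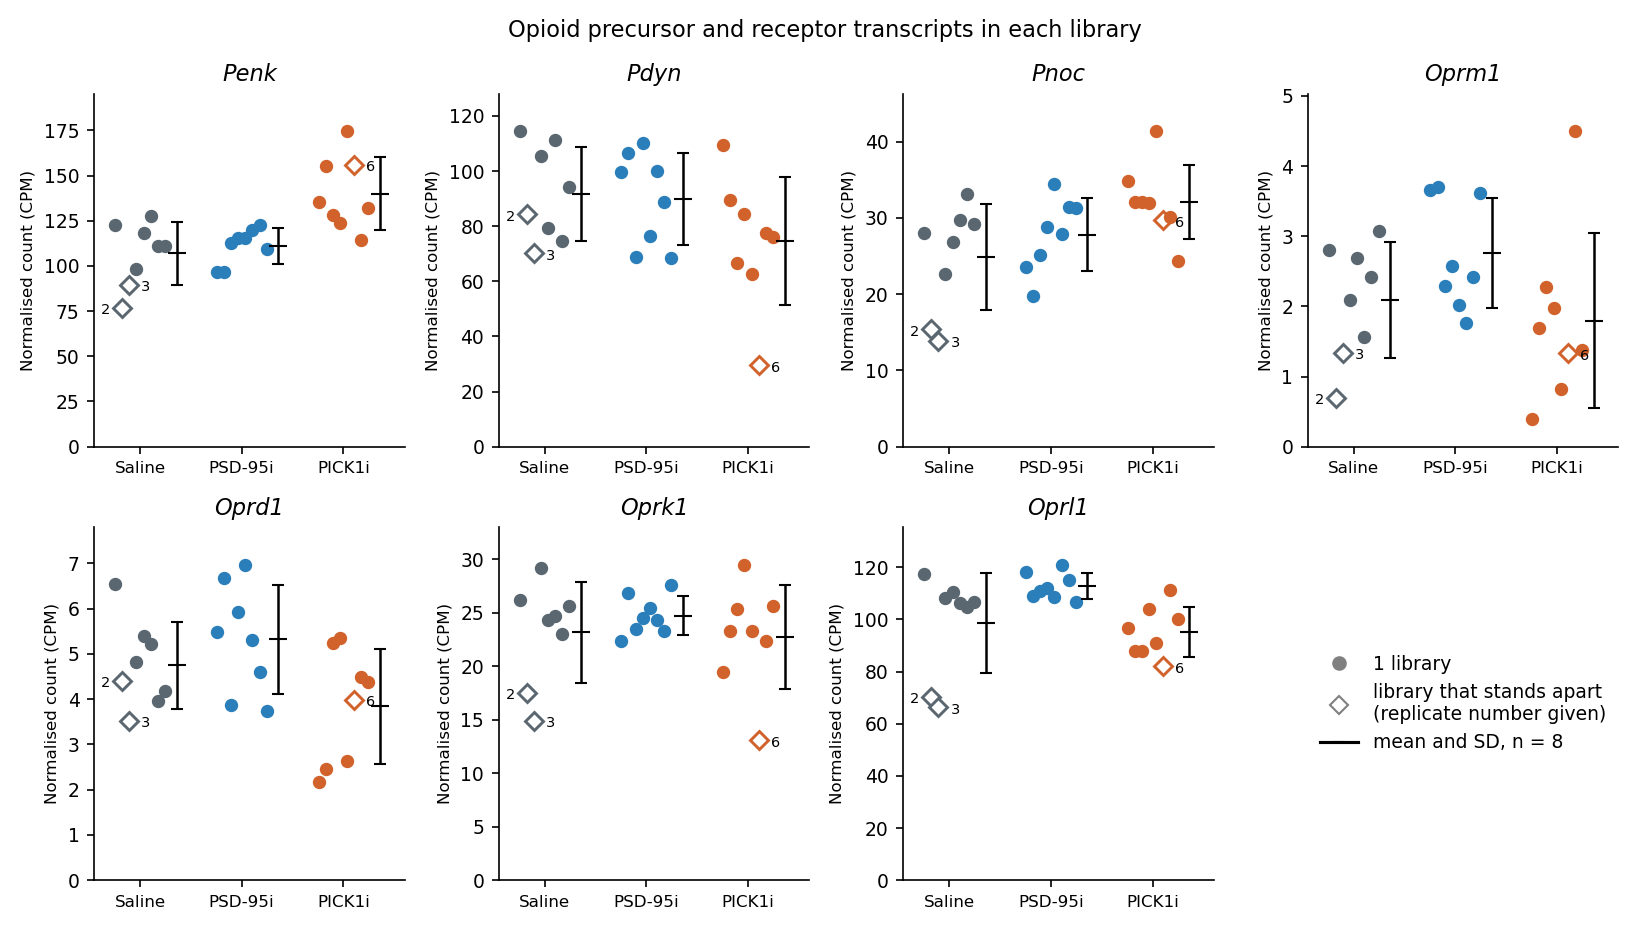
Normalised counts (CPM, linear axes from 0) of the 7 genes in each library, with the mean and SD of each group of 8 beside the points; open diamonds are saline replicates 2 and 3 and PICK1i replicate 6. Penk is higher in PICK1i, at 114 to 174.5 CPM, than in most saline libraries, and saline replicates 2 and 3 are the 2 lowest saline libraries for Penk, Pnoc, Oprm1, Oprk1 and Oprl1.

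PSD-95i was compared with the same saline libraries, so this comparison shares its controls with the previous one. It gave 0 calls among the 7 genes and 0 among all 15667 (0%), with 1 of the 7 and 1719 of all genes at an unadjusted p under 0.05. DESeq2 and limma-voom called 0 genes here as well. The median log2 fold change of the 7 was 0.16, against -0.0031 over all genes. With 21 libraries that median was -0.02, with 0 of the 7 and 472 of all 15796 genes at an unadjusted p under 0.05.

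Penk in PSD-95i ran from 96.4 to 122 CPM with a median of 114 CPM, and all of these values lay within the saline range. Its log2 fold change was 0.05 ± 0.09 (95% interval -0.14 to 0.25, adjusted p = 0.850). Pdyn had 68.3 to 110 CPM (median 94.2) and differed by -0.03 (95% interval -0.36 to 0.30). Pnoc had 19.7 to 34.5 CPM (median 28.4) and differed by 0.16 (95% interval -0.13 to 0.46). All 3 precursors thus overlapped saline over most of their range, and intervals of this width do not show that the levels were the same.

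Oprl1 had the smallest p of the 7 in this comparison. It ran from 107 to 121 CPM in PSD-95i, and all 8 libraries lay above the saline median while 2 lay above the highest saline library. The log2 fold change of 0.19 ± 0.09 did not pass (unadjusted p = 0.0488, adjusted p = 0.452), and it was 0.05 (95% interval -0.06 to 0.15) with 21 libraries. Oprm1 differed by 0.39 (95% interval -0.24 to 1.01), Oprd1 by 0.16 (-0.21 to 0.52) and Oprk1 by 0.09 (-0.16 to 0.34), none of which passed.

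The 2 inhibitor groups share no libraries and were compared with each other, at their different doses. Again 0 of the 7 genes and 0 of all 15667 (0%) were called by edgeR. At an unadjusted p under 0.05 were 3 of the 7, Penk, Oprl1 and Oprd1, and 3789 of all genes. DESeq2 called 1 of the 7 (Penk) among 1359 genes (8.67%), and limma-voom called 2 (Penk and Oprl1) among 436 (2.78%). Penk was lower in PSD-95i by a log2 fold change of -0.33 ± 0.09 (95% interval -0.52 to -0.14, adjusted p = 0.0525). All 8 PSD-95i libraries were below the PICK1i median and 4 were below the lowest PICK1i library. With 21 libraries the value was -0.31 (adjusted p = 0.0593), where 1 gene in all was called (0.00633%). Without PICK1i replicates 1, 2, 5 and 6 it was -0.16 (adjusted p = 1.00).

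The Penk difference between the inhibitors crossed the threshold when some single libraries were left out. Its adjusted p was 0.0464 without saline replicate 2, 0.0480 without saline replicate 3, 0.0424 without PICK1i replicate 3, 0.0294 without PICK1i replicate 4 and 0.0105 without PICK1i replicate 7. Saline libraries are in neither group of this comparison, but leaving one out changes the shared spread, the scaling and the set of genes tested. Without PICK1i replicate 7 Oprl1 (0.28, adjusted p = 0.0437) and Oprm1 (0.92, adjusted p = 0.0337) were called as well.

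Oprl1 was higher in PSD-95i than in PICK1i by 0.24 ± 0.09 (95% interval 0.05 to 0.43, adjusted p = 0.111). With 21 libraries the size was close, 0.22 ± 0.05 (95% interval 0.11 to 0.32, adjusted p = 0.0593), and 4 of 8 PSD-95i libraries exceeded the highest PICK1i one. Oprd1 was higher by 0.44 ± 0.18 (95% interval 0.07 to 0.82, adjusted p = 0.139). Both sizes depended on the setting. Across the 13 settings other than leaving out 1 library, Oprl1 ran from 0.117 to 0.248 and Oprd1 from 0.0853 to 0.447. Oprm1 differed by 0.53 (-0.11 to 1.17), Pdyn by 0.26 (-0.07 to 0.60), Pnoc by -0.20 (-0.49 to 0.09) and Oprk1 by 0.11 (-0.14 to 0.36).

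**Figure D4:**
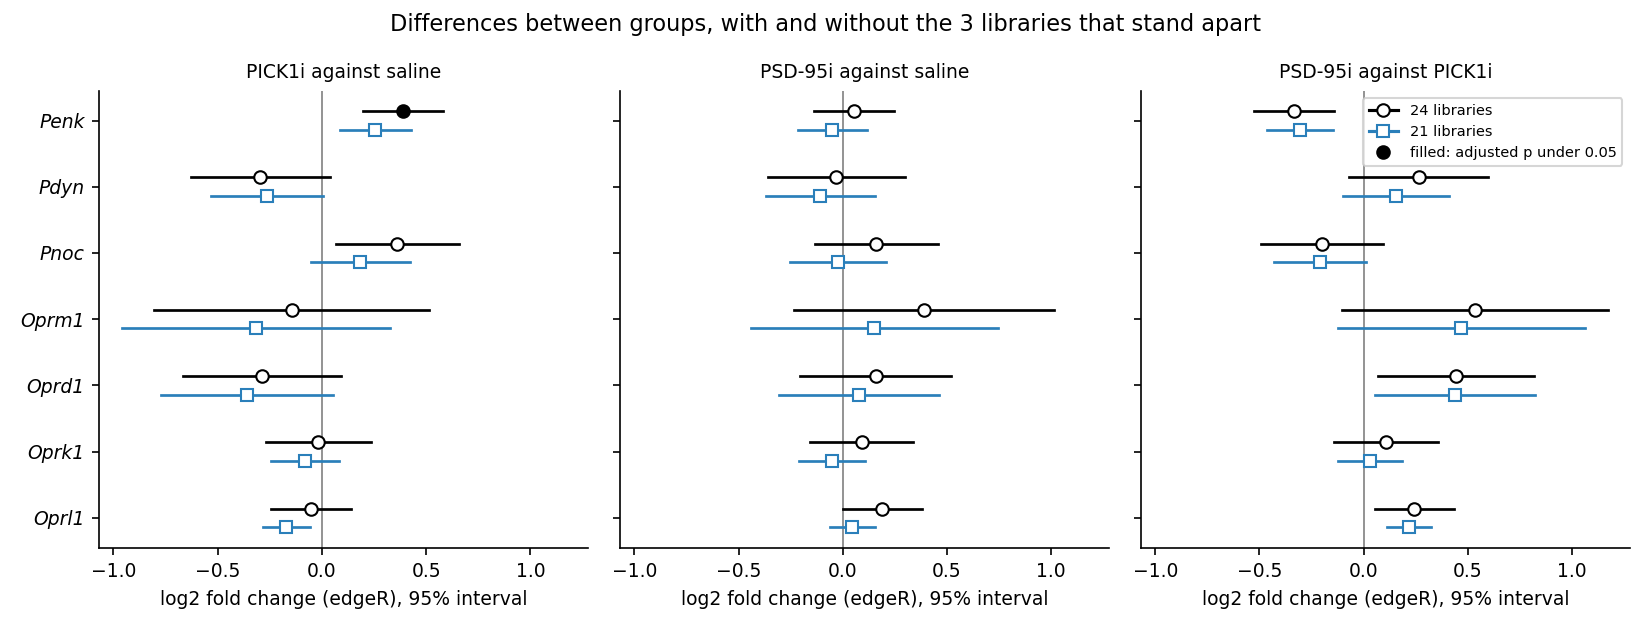
Log2 fold change of each gene with its 95% interval from edgeR in the 3 comparisons, from all 24 libraries (circles) and from the 21 without saline replicates 2 and 3 and PICK1i replicate 6 (squares); a filled symbol has an adjusted p under 0.05. The 1 filled symbol is Penk in PICK1i against saline with 24 libraries (0.39), and Oprm1, with 2 to 42 reads per library, has the widest intervals.

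The gene counts are the sums of the transcript counts, so transcript-level estimates give no separate evidence on Penk. In PICK1i against saline 760 of 37955 transcripts tested were called (2%), and among the 20 tested transcripts of the 7 genes 1 was called, Penk-201, at 0.39 (adjusted p = 0.0373). The shorter Penk-202 stood at 0.35 (adjusted p = 0.0555). With 21 libraries Penk-201 was at 0.27 (adjusted p = 0.175) and Penk-202 at 0.25 (adjusted p = 0.222), where 0 of 38400 transcripts were called. Penk-201 held 70.8% ± 1.1 of the Penk reads in saline and 71.3% ± 1.6 in PICK1i (SD, n = 8 each), so the mix of the 2 forms differed by less than the spread between libraries. Neither of the other comparisons called any transcript of the family or of any other gene with edgeR (0%), while DESeq2 called 4 of the family in PSD-95i against PICK1i, among 1681 of 37955 transcripts (4.43%), and 0 in PSD-95i against saline.

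Oprl1 was spread over more forms. The protein-coding Oprl1-205 held 57.3% ± 2.5 of its reads in saline libraries (SD, n = 8), 56.4% ± 2.5 after PSD-95i and 62.0% ± 7.0 after PICK1i. Oprl1-210, annotated as a target of nonsense-mediated decay, held 14.9% ± 2.0, 14.8% ± 1.4 and 10.8% ± 2.8 in the same order. Between PSD-95i and PICK1i the Oprl1-210 counts differed by 0.65 (adjusted p = 0.0714) and those of the coding Oprl1-201 by 0.46 (adjusted p = 0.0731), against 0.11 (adjusted p = 0.567) for Oprl1-205. Pdyn-201 carried 96.7% of the Pdyn reads, Oprk1-204 carried 63.4% of the Oprk1 reads, and Pnoc and Oprd1 had 1 transcript each. None of the 31 Oprm1 transcripts passed the filter.

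Penk and Pnoc varied together between libraries. With the group means removed, the Pearson r of their log2 CPM over 24 libraries was 0.74 (permutation p = 0.00022, adjusted p = 0.00462 over the 21 pairs) and Spearman's rho was 0.71 (permutation p = 0.00025, adjusted p = 0.00525). The value was 0.70 without the 2 libraries farthest from the Penk median, and 0.86 within saline, 0.77 within PSD-95i and 0.50 within PICK1i. Over 21 libraries it was 0.63 (permutation p = 0.003, adjusted p = 0.072). The value within saline was then 0.515, without replicates 2 and 3, and that within PICK1i was 0.61.

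Of the 21 pairs 1 other passed with 24 libraries, Oprk1 with Oprl1 (r = 0.69, permutation adjusted p = 0.040; rho = 0.48, permutation adjusted p = 0.125). That relation rested on the 3 libraries that stand apart, since without them r was -0.04. The opposite held for Penk and the mu receptor, with r = -0.06 over 24 libraries and -0.57 over 21 (permutation p = 0.031, adjusted p = 0.302), a correlation that did not pass. With 21 libraries 0 of the 21 pairs had a permutation adjusted p under 0.05.

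Among 13807 expressed genes, those whose log2 CPM followed each opioid gene most closely, with group means removed, were ranked by Pearson r as a description. For Penk, Pianp (r = 0.89) and Gstm5, a glutathione transferase (0.89), were among the closest 3 with 24 libraries, and both stayed so with 21 (0.85 each), where the keratin gene Krt1 was closest (0.90). Rgs10, a regulator of G protein signalling, held a place for Pnoc in both sets (0.89 and 0.82), as did Dync1li1, a dynein subunit, for Oprd1 (0.86 and 0.87). For the other 4 genes the closest 3 differed completely between the sets. Pdyn was closest to Arhgap36 with 24 libraries (0.92) and to Rax, a hypothalamic homeobox gene, with 21 (0.84). Oprl1 was closest to Lrp1 (0.93) and then to Fosl2 (0.83), Oprk1 to the GABA receptor subunit gene Gabrq (0.87) and then to Tmem215 (0.81), and Oprm1 to Plxna4 (0.85) and then to the ankyrin gene Ank2 (0.89).

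Around the family, 42 genes of opioid peptide processing, degradation, binding and receptor signalling were all tested. In PICK1i against saline edgeR called 3 of them higher and 4 lower, where 4.88% of all genes tested rose and 4.27% fell. DESeq2 called 10 of the 42, with 12.7% of all genes, and limma-voom called 0, with 0.0191% of all genes. At an unadjusted p under 0.05 in edgeR were 19 of the 42 and 4509 of all 15667 genes. The median log2 fold change of the 42 was -0.0066, against -0.0092 over all genes. Of 8 processing genes 2 fell, the prohormone convertases Pcsk1 (-0.77 ± 0.23, adjusted p = 0.0360) and Pcsk2 (-0.38 ± 0.12, adjusted p = 0.0420). Without the 3 libraries Pcsk1 was at -0.14 (adjusted p = 0.369) and Pcsk2 at -0.17 (adjusted p = 0.206). Of 6 peptidases that degrade opioid peptides 0 were called by edgeR and 1 by DESeq2, with 3 at an unadjusted p under 0.05. Of all 15667 genes 4509 were at an unadjusted p under 0.05, and DESeq2 called 12.7%.

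Of the 6 other ligand and binding genes, Pomc fell and Ogfrl1 rose. Pomc, the precursor of beta-endorphin, had 13840 and 17000 CPM in saline replicates 2 and 3 and 76.8 to 153 CPM in the other 6 saline libraries, so that its log2 fold change of -5.02 (adjusted p = 0.0181) became 0.21 (adjusted p = 0.618) with 21 libraries. PICK1i replicate 6 had the least Pomc, at 8.20 CPM. Ogfrl1, a relative of the opioid growth factor receptor, rose by 0.25 (adjusted p = 0.0225), and stood at 0.18 (adjusted p = 0.142) with 21 libraries.

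Of 13 G protein and regulator genes 2 rose and 0 fell. These were Rgs19, which speeds the shut-off of inhibitory G proteins (0.50 ± 0.10, adjusted p = 0.0175), and Arrb2, the beta-arrestin that binds activated receptors (0.28 ± 0.07, adjusted p = 0.0253). With 21 libraries they stood at 0.41 (adjusted p = 0.0901) and 0.18 (adjusted p = 0.163). Of 9 effector genes 1 fell, Kcnj6, a subunit of the potassium channel that opioid receptors open (-0.41 ± 0.13, adjusted p = 0.0447; -0.35 and adjusted p = 0.160 with 21 libraries).

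In PSD-95i against saline 0 of the 42 were called by edgeR, DESeq2 or limma-voom, with 6 at an unadjusted p under 0.05. Of all 15667 genes tested, 1719 were at an unadjusted p under 0.05 there. In PSD-95i against PICK1i 0 were called by edgeR and 3 by DESeq2, with 8 at an unadjusted p under 0.05. Over all 15667 genes DESeq2 called 1359 (8.67%), and 3789 were at an unadjusted p under 0.05 in edgeR. With 21 libraries 0 of the 42 were called in any of the 3 comparisons. At an unadjusted p under 0.05 were 13 in PICK1i against saline, 0 in PSD-95i against saline and 14 in PSD-95i against PICK1i. Of all 15796 genes tested with 21 libraries, 3302, 472 and 4029 were at an unadjusted p under 0.05 in the same order.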

How the data were processed

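Polyadenylated RNA of 24 hypothalamus samples was made into stranded TruSeq libraries and read as 52-base pairs, per the labels' protocols. Per the submitters' processing notes, base calls were converted by bcl2fastq 2.20.0 and STAR and Salmon were used with GRCm38. Their versions, the annotation release and the strand setting were "not given in the sources used here". The deposited gene and transcript tables hold expected counts, estimated by the authors and not normalised; they were rounded. Genes were filtered with filterByExpr (minimum count 10), scaled by TMM and fitted in 1 edgeR 4.0.16 quasi-likelihood model of 3 groups (R 4.3.3), tested two-sided, with Benjamini-Hochberg adjustment over all 15667 genes (37955 transcripts) and a threshold of 0.05. CPM use TMM factors. TPM were computed from transcript counts and GENCODE M21 lengths. Only the edgeR gene test of PICK1i against saline was checked on simulated counts, for the fold changes of genes changed by known amounts. Alternatives used DESeq2 1.42.0, limma 3.58.1, other filters and scaling, covariates, blocks and left-out libraries. Correlations used 100000 permutations within groups. P-values measure the spread between libraries. The 7 genes, the pathway and marker lists and the 3 libraries set apart were chosen with earlier results of these data known. Named genes were the 7 members, Pomc, pathway genes past the threshold (at most 4 a list) and the 3 genes most like each member. Tac2, Kiss1, Rgs9 and the other striatal genes given by name are marker genes named after their values were seen. Grk2 and Grk3 were matched by identifier to Adrbk1 and Adrbk2.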

Additional observations from a re-analysis of the deposited data

Results flagged for a closer look

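Of the 21 sets of 8 values (7 genes in 3 groups), 1 held a library whose gap to its nearest neighbour, divided by the range of the set in log2 CPM, passed Dixon's 95% critical value, and chance gives about 1 such set in 20. The ratio there was 0.576. Pdyn in PICK1i replicate 6 stood at 29.47 CPM, the lowest of the 24 libraries. The same library had the highest level of cortical and hippocampal markers (483 CPM) and the lowest of ventromedial (93.5 CPM) and of magnocellular and paraventricular markers (321 CPM); the part of these in the Pdyn value was not tested.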

How the results depend on the processing

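Across 37 settings, 24 of which leave out 1 library, the single call of PICK1i against saline (Penk) held in each of the 24, where the count of opioid genes called stayed at 1 or above, with Penk at 0.32 to 0.44 and adjusted p from 0.00609 to 0.0494. The count fell to 0 with limma-voom, with only the 2 groups compared, without saline replicates 2 and 3, without the 3 libraries that stand apart, without PICK1i replicates 1, 2, 5 and 6, with each library's length tilt as a covariate, and, in a setting chosen after seeing the data, without all 6 of those libraries. The cause was not tested. In PSD-95i against PICK1i the count of 0 became 1 with DESeq2, 2 with limma-voom, 2 without saline replicates 2 and 3, and 0 to 3 when 1 library was left out. Of the family's transcripts, 0 were called in PICK1i against saline without the 3 libraries, 2 with DESeq2 and 0 with the replicate block. Over all transcripts the calls there were 0 of 38400, 2215 of 37955 and 19 of 37955. In PSD-95i against PICK1i DESeq2 called 4 of the family's transcripts, among 1681 of 37955. Correlated pairs fell from 2 to 0 without the 3 libraries. Replicate numbers did not pair the samples (same-numbered libraries correlated at -0.194 to 0.15); with the replicate block Penk stood at 0.39 (adjusted p = 0.0290) and the 3 counts of genes were 1, 0 and 0.

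Signs turned only for values that had not passed. In PICK1i against saline, without PICK1i replicates 1, 2, 5 and 6, Oprm1 was 0.286, Oprd1 0.0267, Oprk1 0.142 and Oprl1 0.0274; with the length tilt Oprm1 was 0.312, Oprk1 0.119 and Oprl1 0.0514; without the 6 libraries Oprm1 was 0.0613 and Oprk1 0.000237. In PSD-95i against saline Penk was -0.0220 and Oprk1 -0.0134 with limma-voom. Without saline replicates 2 and 3, without the 3 and without the 6 libraries, Penk was -0.0515, -0.0514 and -0.0507, Pnoc -0.0250, -0.0248 and -0.0239, and Oprk1 -0.0505, -0.0507 and -0.0515. In PSD-95i against PICK1i Oprm1 was -0.106 and Oprk1 -0.0589 with the length tilt, and Oprk1 was -0.0530 without the 4 PICK1i libraries and -0.0517 without the 6. Leaving out 1 library gave -0.0869 to 0.0595 for Oprk1 and -0.119 to 0.000601 for Oprl1 in PICK1i against saline, and -0.00799 to 0.0938 for Penk and -0.0830 to 0.0200 for Pdyn in PSD-95i against saline. Over all genes, the 1434 calls of PICK1i against saline became 3 with limma-voom, 316 with consecutive libraries as a random block, 0 with only the 2 groups, 5 without saline replicates 2 and 3, 3 without the 3, 0 without the 4, 2 with the length tilt, 0 without the 6 and 299 to 2757 without 1 library. The 0 calls of PSD-95i against PICK1i became 1359 with DESeq2, 436 with limma-voom, 1208 without saline replicates 2 and 3, 1 without the 3 and 0 to 2315 without 1 library.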
